A study of Homo sapiens with 4 samples.

Results

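The genes studied here encode the subunits of the mitochondrial respiratory chain and of the ATP synthase it drives, as far as these subunits come from nuclear DNA. Members were chosen by name: current symbols that start with NDUFA, NDUFB, NDUFC, NDUFS or NDUFV and a digit (complex I), SDHA to SDHD (complex II), UQCR (complex III), COX4 to COX8 (complex IV) or ATP5 (complex V), without assembly factors, pseudogenes and readthrough genes. RefSeq lists 85 protein-coding genes of such names, and 82 of them had at least 1 probe set with a single gene symbol, out of 18132 genes with such a probe set. They held 188 of the 49395 probe sets, with 35 genes of complex I, 3 of complex II, 8 of complex III, 17 of complex IV and 19 of complex V. The others were not analysed here.

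Complexes I and II take electrons from NADH and succinate and pass them to ubiquinone, complex III hands them to cytochrome c, and complex IV delivers them to oxygen. Complexes I, III and IV pump protons across the inner mitochondrial membrane, and complex V, the ATP synthase, lets the protons flow back and makes ATP. Each complex is built from nuclear-encoded subunits and, apart from complex II, from a few subunits encoded by mitochondrial DNA, so that genes in both genomes have to be expressed together. In myeloid leukemia cells, oxidative phosphorylation is a known source of ATP.

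RNA of 2 human cell lines was measured on Affymetrix PrimeView arrays, where several short probes, together called a probe set, measure a transcript. MDS-L, a human line from myelodysplastic syndrome (MDS) that needs IL-3 for growth, was treated with decitabine (DAC), an analog of deoxycytidine that lowers DNA methylation, or with its solvent DMSO. SKM-1, a human leukemia line that arose after MDS, was treated in the same manner. DAC was given at 1 μM in daily pulses for 5 days, and IL-3 was supplied to MDS-L. Each line gave 1 array with DAC and 1 with DMSO, so that none of the 4 conditions was replicated. A difference between DAC and DMSO within a line is therefore that of a single pair of arrays and has no test, and treatment and array cannot be told apart. Each line is 1 culture model, and no primary cells are in this comparison.

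The 359 probe sets of olfactory receptor genes, which these cells are not known to use, set the background: their 90th percentile on an array was 5.09 with DAC and 4.84 with DMSO in MDS-L, and 5.07 with DAC and 4.88 with DMSO in SKM-1, on the log2 scale of the deposited values. A gene counted as measured in a line if it lay above background on at least 1 array of that line. There were 12714 such genes in SKM-1 and 12688 in MDS-L. Of 6 myeloid progenitor markers on the arrays, 6 lay above background in MDS-L with DAC and with DMSO, whereas KIT was under background on both SKM-1 arrays and HLA-DRA on the SKM-1 array with DMSO. Of 3 T cell markers in MDS-L, 3 lay above background with DAC (5.45 to 8.91) and 1 with DMSO (3.98 to 5.02), against 1 of 3 on each SKM-1 array. Of 4 monocyte markers, all lay above background on both MDS-L arrays and 3 on both SKM-1 arrays. All 4 had higher values with DAC than with DMSO in each line, although CD14 was under background in SKM-1 (3.79 and 3.72). This was not particular to monocyte markers. The B cell, erythroid and megakaryocyte markers on the arrays were also higher with DAC in each line, except for ITGA2B. HBB, for example, had 7.97 with DAC and 7.28 with DMSO in MDS-L, and 7.24 with DAC and 6.43 with DMSO in SKM-1. ITGAM had 8.89 with DAC and 7.53 with DMSO in MDS-L, and 6.74 with DAC and 5.999 with DMSO in SKM-1. LYZ had 10.45 with DAC and 9.82 with DMSO in MDS-L, and 11.64 with DAC and 10.67 with DMSO in SKM-1. The part of these markers in the results was not tested. In bulk RNA, fewer cells of a type and less RNA per cell cannot be told apart.

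Of the 82 members, 76 lay above background on all 4 arrays and 74 had a level of 9 or more on every array. COX7B2 and COX6B2 were above background on some arrays only, and COX4I2, COX7A1, COX8C and ATP5MGL on none. All but ATP5MGL among these 6 encode isoforms of complex IV that are restricted to certain tissues. In all, 78 members were measured in SKM-1 and 76 in MDS-L.

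Promoters are shown for 5 members on which the results below turn. RefSeq promoter entries, from 250 bases before to 50 bases after the gene start, were found for 67 of the 82 members, and the 250 bases before the start are printed here on the strand of the gene, in the build GRCh38.p14. The first 3 have every CG in capitals, because CG is the pair of bases that carries DNA methylation in human cells and DAC lowers that methylation. COX7B2 had the largest difference of all members in SKM-1, COX7B is its broadly expressed paralog, and NDUFA10 had the lowest difference in SKM-1.
COX7B2 (chr4:46909246-46909495, minus strand): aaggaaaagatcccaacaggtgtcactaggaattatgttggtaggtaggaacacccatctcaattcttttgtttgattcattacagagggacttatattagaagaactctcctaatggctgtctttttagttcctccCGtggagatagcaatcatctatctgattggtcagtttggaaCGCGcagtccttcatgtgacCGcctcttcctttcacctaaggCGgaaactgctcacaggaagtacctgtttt
COX7B (chrX:77899218-77899467, plus strand): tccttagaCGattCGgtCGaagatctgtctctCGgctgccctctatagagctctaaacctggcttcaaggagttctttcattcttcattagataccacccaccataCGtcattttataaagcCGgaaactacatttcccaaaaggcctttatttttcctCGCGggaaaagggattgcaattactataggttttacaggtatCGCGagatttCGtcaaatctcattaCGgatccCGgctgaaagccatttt
NDUFA10 (chr2:240025343-240025592, minus strand): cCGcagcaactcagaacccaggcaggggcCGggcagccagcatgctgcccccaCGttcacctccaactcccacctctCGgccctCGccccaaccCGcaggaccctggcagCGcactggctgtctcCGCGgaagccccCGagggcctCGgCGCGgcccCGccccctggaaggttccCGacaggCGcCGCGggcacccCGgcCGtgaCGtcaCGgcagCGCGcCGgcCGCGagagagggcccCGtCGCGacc
The COX7B2 stretch held 5 CG, the COX7B stretch 13 and the NDUFA10 stretch 30. Over the whole 300 bases, 8 CG stood at COX7B2, 14 at COX7B and 33 at NDUFA10, beside a median of 23 over members and of 24 over protein-coding genes. No DNA methylation was measured in these samples. In the next pair, capitals mark motifs of factors known to act at such promoters: the ETS motif CCGGAAG, which is read by GABP among others, in NDUFB7, and the NRF1 motif, found on either strand, in ATP5ME. NDUFB7 had the largest difference in SKM-1 among members above background on all arrays, and ATP5ME is shown as a member with more than 1 NRF1 motif.
NDUFB7 (chr19:14572067-14572316, minus strand): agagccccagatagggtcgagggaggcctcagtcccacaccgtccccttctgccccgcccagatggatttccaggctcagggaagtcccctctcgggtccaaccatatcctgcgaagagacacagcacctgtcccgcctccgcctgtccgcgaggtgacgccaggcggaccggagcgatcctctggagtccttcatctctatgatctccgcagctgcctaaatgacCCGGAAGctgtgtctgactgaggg
ATP5ME (chr4:674277-674526, minus strand): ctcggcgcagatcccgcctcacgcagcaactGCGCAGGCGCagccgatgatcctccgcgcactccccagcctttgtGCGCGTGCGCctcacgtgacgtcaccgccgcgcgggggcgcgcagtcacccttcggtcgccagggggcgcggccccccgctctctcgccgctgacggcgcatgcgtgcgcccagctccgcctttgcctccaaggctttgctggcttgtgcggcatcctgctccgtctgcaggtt
These motifs and the YY1 motif AAGATGG were searched on both strands of all 300 bases. NRF1 motifs stood at 23.9% of 67 members, against 6.98% of all genes with a promoter entry and 9.67% of the protein-coding ones. ETS motifs stood at 29.9% of members, against 12.2% of all genes and 16.5% of protein-coding genes, and YY1 motifs at 25.4% of members, against 7.11% and 7.90%. At least 1 of the 3 was found at 62.7% of members and at 29.3% of protein-coding genes, and no member had overlapping motifs. A match of letters does not show that a factor is bound.

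The first question was whether the subunit genes differed after DAC as a group. In SKM-1 most were higher with DAC, and in MDS-L most were slightly lower. Over the 78 members measured in SKM-1, the median difference of DAC minus DMSO was 0.30 on the log2 scale, against 0.05 over all measured genes, and 64 members (82.1%) were above 0, against 54.8% of all genes, with 14 below 0, against 45.2%. Over the 76 members measured in MDS-L, the median was -0.11, against 0.04 over all genes. There, 50 members (65.8%) were below 0, against 46.3% of all genes, with 26 above 0, against 53.7%. These shares of all genes cover every signal level. In each band of mean level from 9 to 15, all measured genes had a median below 0 in MDS-L, as given below. The contrast in MDS-L was smaller with background at the 99th percentile. The median was then -0.11 over 75 members and -0.02 over all genes, and 50 members were below 0, against 51.6% of all genes.

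The larger differences lay in SKM-1 as well. There, 8 of 78 members (10.3%) were at least 2-fold higher with DAC, against 2.71% of all measured genes, and 0 were at least 2-fold lower, against 1.43% of all genes. The 8 include COX7B2, which counted as measured only through its DAC array, and the 2.71% counts such genes too. With background at the 99th percentile, 7 of 76 members were 2-fold higher, and the share of all genes there is not given here. At least 1.5-fold higher were 20 members (25.6%), against 9.65% of all genes, and 1 member, NDUFA10, was at least 1.5-fold lower, against 9.15%. If any probe set of a gene may count, 9 members were 2-fold higher in SKM-1 and 2, ATP5F1A and COX4I1, were 2-fold lower. The share of all genes under that rule is not given here, and the 2.71% and 1.43% above do not apply to these counts. In MDS-L, 0 of 76 members were 2-fold higher, against 3.62% of all genes, and 0 were 2-fold lower, against 3.18%. At 1.5-fold, 0 members were higher in MDS-L (9.06% of all genes) and 3 were lower (10.7% of all genes). As a measure of noise, the differences of several probe sets of a gene had a pooled SD of 0.26 over 46 members in SKM-1 and of 0.24 over 46 members in MDS-L, which does not cover the spread between cultures or arrays.

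All genes of similar signal are given beside the members. Among all measured genes with a mean level of 12 to 13, the median difference was -0.04 in SKM-1 and -0.10 in MDS-L, whereas the 19 members at this level had medians of 0.42 in SKM-1 and -0.08 in MDS-L. At a level of 11 to 12, the median over all genes was -0.06 in SKM-1 and -0.12 in MDS-L, and that over 23 members was 0.25 in SKM-1 and -0.15 in MDS-L. At 10 to 11, all genes had medians of -0.06 in SKM-1 and -0.10 in MDS-L, and 12 members had 0.24 in SKM-1 and -0.19 in MDS-L. At 13 to 15, all genes had medians of -0.0041 in SKM-1 and -0.03 in MDS-L, and 16 members had 0.39 in SKM-1 and 0.02 in MDS-L. At 9 to 10, all genes had medians of -0.05 in SKM-1 and -0.09 in MDS-L, and 5 members had 0.02 in SKM-1 and -0.55 in MDS-L. In MDS-L the medians of the members were thus close to those of genes of similar signal from 11 to 15. They were lower than those of such genes from 9 to 11.

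**Figure D1:**
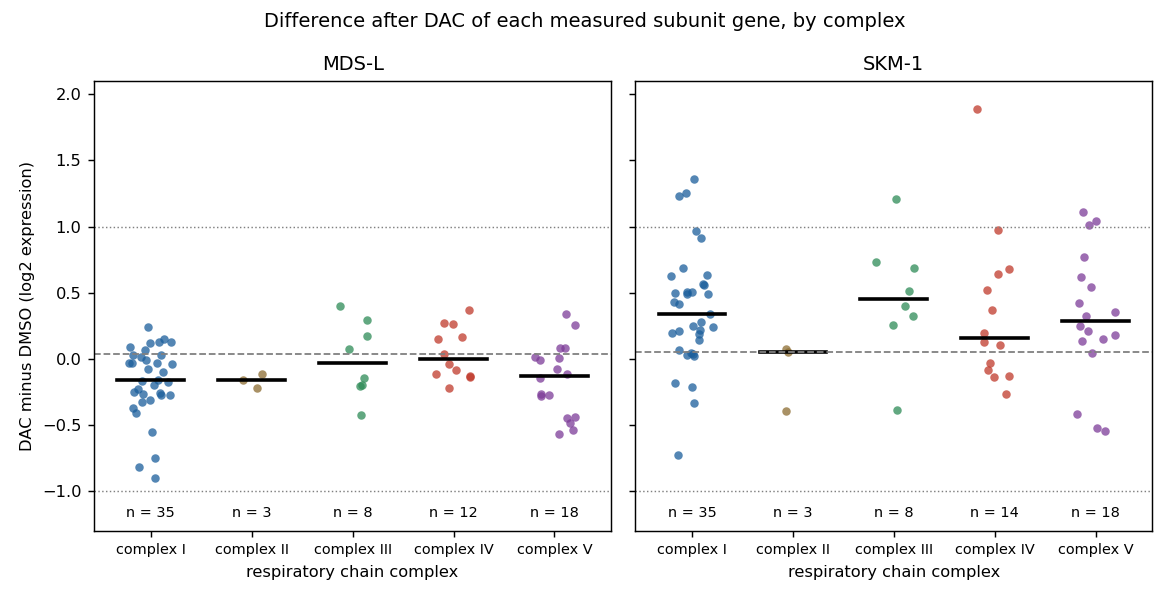
Difference of DAC minus DMSO (log2 expression, vertical axis) of each measured subunit gene by complex (horizontal axis) in MDS-L (left) and SKM-1 (right), with 1 point per gene. Black bars are medians by complex, the dashed line is the median over all measured genes of that line and dotted lines mark 2-fold. Most points of complexes I, III, IV and V lie above the dashed line in SKM-1, and the highest point, COX7B2 at 1.89, is a lower bound.

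Complex I, the NADH dehydrogenase, supplied the most members, and all 35 were above background on all 4 arrays. In SKM-1, 31 of the 35 were higher with DAC and the median was 0.34, and in MDS-L 25 of 35 were lower and the median was -0.16. The 6 measured core subunits, most of which bind cofactors that carry electrons, had medians of 0.52 in SKM-1 and -0.30 in MDS-L. The 29 accessory subunits, which surround that core, had medians of 0.28 in SKM-1 and -0.08 in MDS-L. After quantile normalization the MDS-L medians were -0.029 over complex I and 0 over the accessory subunits.

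Among the core subunits, NDUFS7 and NDUFS1 stood at opposite ends. NDUFS7, which holds the last iron-sulfur cluster before ubiquinone, had values of 11.80 with DAC and 10.57 with DMSO in SKM-1, and of 10.13 with DAC and 10.07 with DMSO in MDS-L. It was thus 2.35-fold higher with DAC in SKM-1 and differed by 0.07 in MDS-L. NDUFS1, the largest subunit of the complex, was at 9.05 with DAC and 9.80 with DMSO in MDS-L, and at 9.81 with DAC and 10.15 with DMSO in SKM-1. Both of its differences were below 0, -0.75 in MDS-L and -0.34 in SKM-1, although its probe sets in MDS-L ranged from -0.999 to 0.14. The other 4 core subunits were higher with DAC in SKM-1 but lower in MDS-L. NDUFS3 differed by 0.55 in SKM-1 and by -0.31 in MDS-L, NDUFS8 by 0.57 and -0.38, NDUFV1, which binds NADH, by 0.49 and -0.16, and NDUFV2 by 0.03 and -0.28. For NDUFS8 the probe sets did not share a direction in MDS-L (-0.38 and 0.43).

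The largest differences among the accessory subunits were in the NDUFB group of the membrane arm. NDUFB7 had 12.05 with DAC and 10.70 with DMSO in SKM-1, a 2.56-fold higher value with DAC, while its MDS-L values were 10.74 with DAC and 10.77 with DMSO. NDUFB2 had 12.07 with DAC and 10.81 with DMSO in SKM-1, and 11.85 with DAC and 11.73 with DMSO in MDS-L. That is a 2.38-fold difference in SKM-1 beside 0.12 on the log2 scale in MDS-L, and each of these genes rests on 1 probe set. NDUFB3 and NDUFB1, named after their values were seen, came next in SKM-1 at 0.96 and 0.91, against 0.01 and -0.08 in MDS-L. The 2 dimmer probe sets of NDUFB3 gave 1.79 and 1.67 in SKM-1, so that this gene passes 2-fold if any probe set may count.

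Lower values were seen for NDUFB10 and NDUFA10. NDUFB10, a subunit of the membrane arm with 1 probe set, was at 9.64 with DAC and 10.54 with DMSO in MDS-L, and at 11.25 with DAC and 11.06 with DMSO in SKM-1. Its difference of -0.90 was the lowest of all members in MDS-L, whereas in SKM-1 it was 0.19. NDUFA10, an accessory subunit on the matrix side, was at 8.16 with DAC and 8.98 with DMSO in MDS-L, and at 9.14 with DAC and 9.86 with DMSO in SKM-1. It was lower in both lines (-0.82 and -0.73), and its 3 probe sets gave -0.98 to -0.64 in MDS-L and -0.76 to -0.59 in SKM-1. NDUFA1, the complex I gene of the highest mean signal, differed by 0.43 in SKM-1 and -0.03 in MDS-L.

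Complex II, succinate dehydrogenase, links the citric acid cycle to the chain and was covered by 3 genes. SDHA, the flavoprotein that oxidizes succinate, had 9.74 with DAC and 9.96 with DMSO in MDS-L, and 10.81 with DAC and 10.76 with DMSO in SKM-1. SDHC, a membrane anchor, had 9.75 with DAC and 9.91 with DMSO in MDS-L, and 10.48 with DAC and 10.87 with DMSO in SKM-1. SDHD, the other anchor, had 10.79 with DAC and 10.91 with DMSO in MDS-L, and 11.14 with DAC and 11.07 with DMSO in SKM-1. All 3 were lower with DAC in MDS-L, with a median of -0.16, although SDHA was at 0.16 there as a median over its probe sets. The SKM-1 median of 0.05 was the lowest of the 5 complexes and turned to -0.40 when the median over all probe sets of a gene was used.

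Complex III, the cytochrome bc1 complex, had the highest median of the 5 complexes in SKM-1, 0.46 over 8 genes, and -0.03 in MDS-L. Its 5 small subunits were all higher with DAC in SKM-1, with a median of 0.51. The large matrix subunits UQCRC1 and UQCRC2 differed by 0.32 and -0.39 in SKM-1, and by -0.21 and -0.42 in MDS-L. UQCRB, a small subunit near the site where ubiquinone binds, had 11.97 with DAC and 10.75 with DMSO in SKM-1, and 11.40 with DAC and 11.11 with DMSO in MDS-L. This is 2.32-fold higher in SKM-1 and 0.29 on the log2 scale in MDS-L, and the 3 probe sets above background gave 1.21 to 1.57 in SKM-1. UQCR11, another small subunit, had 12.37 with DAC and 11.63 with DMSO in SKM-1, and 12.40 with DAC and 11.997 with DMSO in MDS-L. Its MDS-L difference of 0.40 was the highest of all members in that line, but its dimmer probe set gave -0.68 there and -0.19 in SKM-1, so its direction rests on the choice of probe set. UQCRC2 had 11.39 with DAC and 11.77 with DMSO in SKM-1, and 10.87 with DAC and 11.29 with DMSO in MDS-L, which puts it lower with DAC in both. UQCRH, the hinge protein near cytochrome c1, differed by 0.40 in SKM-1 and 0.17 in MDS-L, where its other probe set gave -0.21. UQCRHL, a near-identical copy of UQCRH, differed by 0.69 in SKM-1 and 0.08 in MDS-L, and the probes may not tell the copies apart.

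Complex IV, cytochrome c oxidase, had median differences of 0.16 over 14 genes in SKM-1 and -0.00 over 12 genes in MDS-L. Of its 10 general subunits, 6 were higher and 4 lower with DAC in SKM-1, and 5 were higher and 5 lower in MDS-L. COX7B had 14.20 with DAC and 13.23 with DMSO in SKM-1, and 12.83 with DAC and 12.56 with DMSO in MDS-L, which is 1.96-fold in SKM-1 and just under the 2-fold limit. COX5B, a subunit on the matrix side, had 13.08 with DAC and 12.40 with DMSO in SKM-1, and 11.90 with DAC and 11.53 with DMSO in MDS-L. Both genes were thus higher with DAC in both lines. COX4I1, COX5A and COX8A were lower in both lines, by at most 0.26 in size with their brightest probe sets, although a dim probe set of COX4I1 gave -1.13 in SKM-1. COX6B1, with the highest mean signal of complex IV, differed by -0.09 in SKM-1 and 0.15 in MDS-L.

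The isoform pairs of complex IV set broadly expressed subunits beside forms restricted to muscle, lung or testis. COX7B2, the testis isoform of COX7B, had 6.78 with DAC and 2.98 with DMSO in SKM-1, and 3.37 with DAC and 2.69 with DMSO in MDS-L. In SKM-1 it lay above background with DAC only and was at least 3.71-fold higher, and in MDS-L it lay under background on both arrays. It was the only member above background on just 1 array of a line, and if background is set at the 99th percentile instead, its difference was 0.21. COX6B2, another testis isoform, had 5.19 with DAC and 5.00 with DMSO in SKM-1, and 5.02 with DAC and 4.80 with DMSO in MDS-L, where it was under background. COX6A2, the muscle isoform, had 5.89 with DAC and 6.03 with DMSO in SKM-1, and 6.07 with DAC and 5.81 with DMSO in MDS-L. COX4I2, COX7A1 and COX8C stayed under background on all 4 arrays. Their broad counterparts were far above it: COX4I1 differed by -0.26 in SKM-1 and -0.14 in MDS-L, COX6A1 by 0.13 and -0.04, COX7A2 by 0.52 and 0.04, and COX8A by -0.04 and -0.22. COX7A2L, which joins complexes III and IV, differed by 0.10 in SKM-1 and -0.13 in MDS-L.

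**Figure D2:**
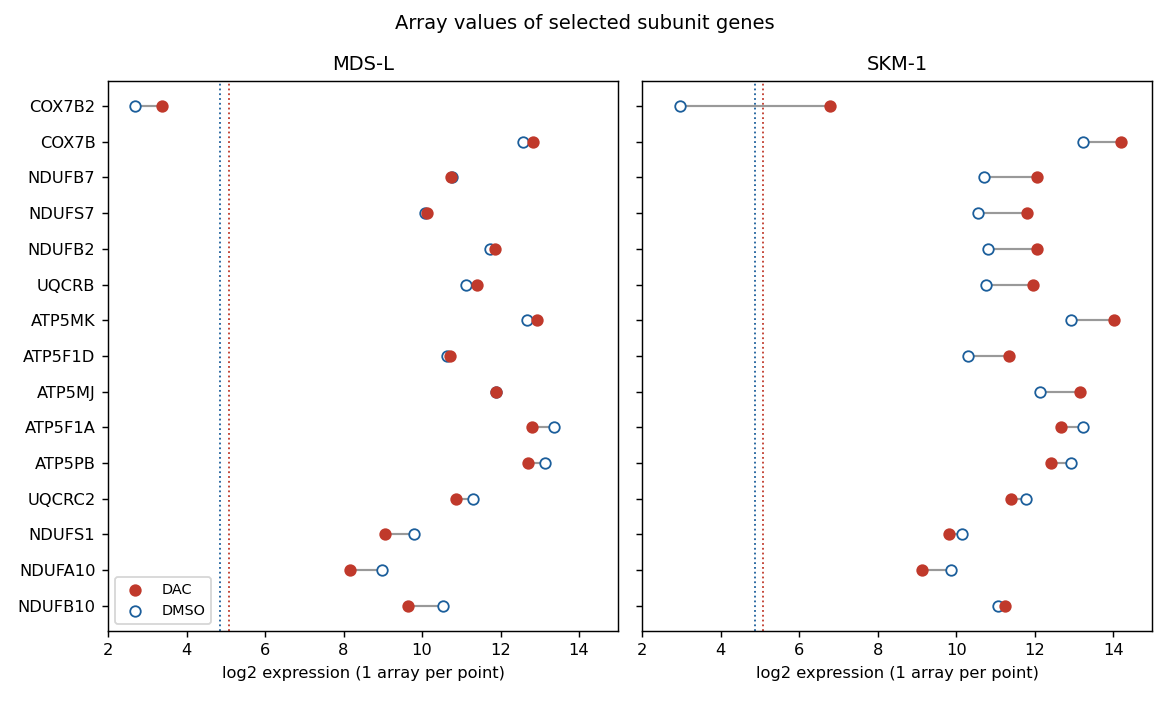
Array values (log2 expression, horizontal axis) of 15 subunit genes with DAC (filled red) and DMSO (open blue) in MDS-L (left) and SKM-1 (right), 1 array per point. Dotted lines are the background levels of the arrays; COX7B2 crosses them in SKM-1 only, while ATP5F1A, ATP5PB, UQCRC2, NDUFS1 and NDUFA10 have the DAC point left of the DMSO point in both lines.

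The subunits of complex V, the ATP synthase, are described by role, in groups that were set after the values were seen. Over 18 measured genes the median was 0.29 in SKM-1 and -0.13 in MDS-L. ATP5F1A and ATP5F1B, which form the catalytic head, were lower with DAC in both lines, and the subunits of the central stalk were higher in SKM-1. ATP5F1A had 12.68 with DAC and 13.23 with DMSO in SKM-1, and 12.80 with DAC and 13.37 with DMSO in MDS-L. Its 4 probe sets all pointed down, from -1.58 to -0.19 in SKM-1 and from -1.35 to -0.36 in MDS-L. ATP5F1B differed by -0.42 in SKM-1 and -0.27 in MDS-L. ATP5F1D, a subunit of the central stalk, had 11.35 with DAC and 10.31 with DMSO in SKM-1, and 10.71 with DAC and 10.63 with DMSO in MDS-L. It was 2.06-fold higher in SKM-1, and its stalk partners ATP5F1C and ATP5F1E differed by 0.62 and 0.55 there. ATP5F1E, with the highest mean signal of complex V, had 13.98 with DAC and 13.43 with DMSO in SKM-1, and 13.79 with DAC and 13.45 with DMSO in MDS-L.

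In the membrane part of the ATP synthase, the 5 small subunits had a median of 0.77 in SKM-1 and 0.01 in MDS-L, and the SKM-1 median was 0.38 when taken over all probe sets of each gene. ATP5MK had 14.03 with DAC and 12.92 with DMSO in SKM-1, and 12.93 with DAC and 12.67 with DMSO in MDS-L. ATP5MJ had 13.14 with DAC and 12.13 with DMSO in SKM-1, and 11.90 with DAC and 11.89 with DMSO in MDS-L. Both are small proteins bound to the membrane part, and they were 2.16-fold and 2.02-fold higher in SKM-1, measured by probe sets whose probes may match other transcripts. Without such probe sets the values were 0.29 for ATP5MK and 0.38 for ATP5MJ, from much dimmer probe sets. In SKM-1 that of ATP5MK had 6.00 with DAC and 5.71 with DMSO, and that of ATP5MJ had 7.22 and 6.85. Which probe sets are nearer to the true difference was not tested. ATP5ME differed by 0.77 in SKM-1 and -0.01 in MDS-L. The 3 genes of the rotating c-ring, which encode the same mature protein, had small differences in SKM-1 (0.13 to 0.21) and lower values with DAC in MDS-L (-0.54 to -0.28). ATP5MC1 had 9.54 with DAC and 10.08 with DMSO in MDS-L, and ATP5MC3 had 12.78 with DAC and 13.26 with DMSO there.

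The peripheral stalk, which holds the head still, had medians of 0.20 in SKM-1 and -0.19 in MDS-L over 4 genes. ATP5PB was the exception in SKM-1, with 12.41 with DAC and 12.94 with DMSO, and it had 12.70 with DAC and 13.14 with DMSO in MDS-L. Its partners ATP5PF, ATP5PD and ATP5PO differed by 0.42, 0.35 and 0.04 in SKM-1. ATP5IF1, the inhibitor that stops the enzyme from running backwards, differed by 0.15 in SKM-1 and -0.08 in MDS-L. ATP5MGL, a gene similar to ATP5MG, lay under background throughout.

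The lines were then set side by side over the 76 members measured in both. The most common pattern was higher with DAC in SKM-1 but lower in MDS-L, which held for 38 members, against 19.0% of all genes measured in both. After quantile normalization of the arrays it held for 30 members, as many as were higher in both lines. The 19.0% covers genes of every signal level and was not taken at similar signal. Higher in both were 24 members, against 35.9% of all genes, and lower in both were 12, against 28.5%. The remaining 2, COX6A2 and COX6B1, were lower with DAC in SKM-1 but higher in MDS-L, against 16.5% of all genes. In 68 of the 76 members the SKM-1 difference lay above the MDS-L difference, against 52.6% of all genes. A difference between the lines could not be tested with single arrays.

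The order of the members was partly shared between the lines. Across the 76 members, the MDS-L and SKM-1 differences had a Pearson correlation of 0.57 and a Spearman correlation of 0.57, beside 0.30 and 0.33 over 11984 genes. These points share the same 4 arrays and genes are no independent replicates, so that the values are a description. The 12 members lower in both lines were ATP5F1A, ATP5F1B, ATP5PB, COX4I1, COX5A, COX8A, NDUFA10, NDUFB9, NDUFC1, NDUFS1, SDHC and UQCRC2. They include the catalytic head of the ATP synthase, a large subunit of complex III and the largest subunit of complex I.

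**Figure D3:**
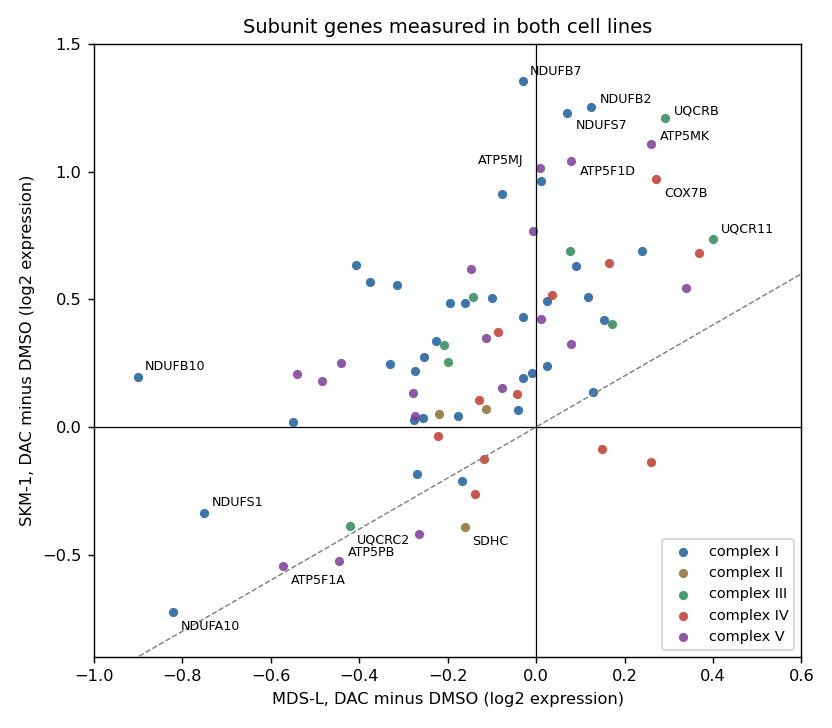
Difference of DAC minus DMSO in MDS-L (horizontal axis) and SKM-1 (vertical axis), both as log2 expression, for the 76 subunit genes measured in both lines, coloured by complex. The dashed line marks equal differences; 68 genes lie above it, and 38 lie at the upper left, higher with DAC in SKM-1 but lower in MDS-L.

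An effect of DAC common to both lines was tested with limma in a model that also holds the cell line, which leaves 1 residual degree of freedom. No gene passed: 0 of 11984 genes had an adjusted p under 0.05 in limma, and the lowest adjusted p was 0.357. At an unadjusted p under 0.05, limma gave 1429 genes (11.9%) and 9 of the 76 members, 6 of them higher and 3 lower with DAC. The 3 lower members were ATP5F1A, with a common difference of -0.56 (SE 0.15), NDUFA10 with -0.77 (SE 0.24) and ATP5PB with -0.49 (SE 0.15). The 6 higher ones were ATP5F1E (0.44), UQCR11 (0.57), COX7B (0.62), ATP5MK (0.68), COX5B (0.52) and UQCRB (0.75). All 9 had an adjusted p of 0.413 in limma, and their number is close to what the background share of 11.9% gives.

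The levels of both lines were also compared within each treatment, probe set by probe set. With DMSO, the level was lower in MDS-L than in SKM-1 for 48 of 76 members, against 50.0% of all genes, and the median of MDS-L minus SKM-1 was -0.19. With DAC, it was lower in MDS-L for 63 of 76 members, against 51.4% of all genes, and the median was -0.66. For complex I the medians were -0.76 with DAC and -0.30 with DMSO, and 33 of 35 genes were lower in MDS-L with DAC. The distance between the lines was thus wider with DAC, which restates the differences above, since the same arrays enter.

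Other genes of mitochondrial energy metabolism were described by lists. Beside the counts of each list, 54.8% of all measured genes were above 0 and 45.2% below 0 in SKM-1. In MDS-L, 46.3% of all measured genes were below 0. Of 52 measured assembly factors, which help to build the complexes, 37 were higher with DAC in SKM-1 (median 0.14) and 41 were lower in MDS-L (median -0.35). SDHAF4, a factor for complex II, had 9.40 with DAC and 8.19 with DMSO in SKM-1, and SCO2, which brings copper to complex IV, had 10.24 with DAC and 9.19 with DMSO. NUBPL, which delivers iron-sulfur clusters to complex I, was lower in both lines, by -0.93 in SKM-1 and -0.84 in MDS-L, but the median over its probe sets in MDS-L was 0.023. COA1, an assembly factor, had 8.01 with DAC and 8.88 with DMSO in MDS-L, and 9.57 with DAC and 9.25 with DMSO in SKM-1.

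The mitochondrial ribosome, which translates the subunits encoded in mitochondrial DNA, was for the most part higher with DAC in SKM-1 but lower in MDS-L. Of 74 measured genes, 53 were higher with DAC in SKM-1 (median 0.30) and 67 were lower in MDS-L (median -0.31). These are 71.6% and 90.5%, against 54.8% and 46.3% of all genes. In SKM-1, MRPS18C differed by 1.33 and MRPL42 by 1.19, and in MDS-L, MRPS27 differed by -1.10 and MRPL41 by 0.95. At least 1.5-fold lower in MDS-L were 21 of the 74 genes, beside the 10.7% of all genes given above. The 13 subunits encoded by mitochondrial DNA were not analysed here.

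Genes that feed electrons into the chain were mostly lower with DAC in both lines. Of 16 measured genes of the citric acid cycle and pyruvate dehydrogenase, 11 were lower with DAC in SKM-1 (median -0.16) and 13 were lower in MDS-L (median -0.37). Of all genes, 45.2% were lower in SKM-1 and 46.3% in MDS-L. SUCLA2 and SUCLG2, subunits of succinyl-CoA ligase, differed by -0.52 and -0.18 in SKM-1, and by -0.88 and -0.98 in MDS-L. OGDH, which makes succinyl-CoA, differed by 0.40 in SKM-1 and 0.01 in MDS-L. Of 8 subunits and carriers whose names fall outside the rule, 5 were higher in SKM-1 (median 0.24) and 5 were lower in MDS-L (median -0.06). Each count is 62.5%, against 54.8% of all genes in SKM-1 and 46.3% in MDS-L. Without probe sets that may match other transcripts, 6 of them remained, with medians of 0.015 in SKM-1 and -0.33 in MDS-L. COXFA4, earlier named NDUFA4 and now counted to complex IV, had 13.53 with DAC and 12.56 with DMSO in SKM-1, and 13.39 with DAC and 13.17 with DMSO in MDS-L. CYC1, which carries the heme of cytochrome c1, differed by 0.44 in SKM-1 and -0.11 in MDS-L, CYCS, cytochrome c, by -0.11 and -0.26, and NDUFAB1 by 0.11 and -0.35. Of the flavoproteins that feed ubiquinone from fatty acid oxidation, ETFA differed by -0.13 and -0.41, ETFB by 0.53 and 0.22 and ETFDH by -0.45 and -0.00. COXFA4L2, a relative of COXFA4 that is known from hypoxic cells, differed by 0.37 in SKM-1 and 0.08 in MDS-L.

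Regulators of mitochondrial biogenesis had medians of -0.10 in SKM-1 and -0.22 in MDS-L over 19 measured genes. Lower with DAC were 10 in SKM-1 (52.6%, against 45.2% of all genes) and 12 in MDS-L (63.2%, against 46.3%). ESRRA, a nuclear receptor that acts at respiratory chain genes, differed by 0.90 in SKM-1 and 0.20 in MDS-L. GABPA, the DNA-binding subunit of GABP, had 8.25 with DAC and 9.14 with DMSO in SKM-1, and 9.52 with DAC and 9.45 with DMSO in MDS-L. TFAM and TFB1M, which act on mitochondrial DNA and on the mitochondrial ribosome, were lower in both lines, by -0.55 and -0.65 in MDS-L and by -0.48 and -0.47 in SKM-1. NRF1, named after its value was seen because its motif was searched, differed by -0.48 in SKM-1 and -0.22 in MDS-L, and YY1 by 0.07 in both.

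Members with and without a motif were set side by side with no test. In SKM-1, the 20 measured members with an ETS motif had a median of 0.41 and the 46 without had 0.25, and in MDS-L the medians were -0.03 with and -0.15 without. Members with an NRF1 motif had a median of 0.32 in SKM-1, as had those without, and both had -0.11 in MDS-L. With a YY1 motif the median was 0.32 in SKM-1, against 0.25 without it.

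The cytosolic ribosome was included as another set of abundant transcripts. Its 70 measured genes had medians of 0.02 in SKM-1 and -0.02 in MDS-L, and the SKM-1 median turned to -0.02 after quantile normalization. RPL22L1 and RPL26L1, ribosomal protein paralogs, differed by 1.47 and 1.02 in SKM-1. RPL35A and RPL27A were lower in both lines, by -1.21 and -0.55 in MDS-L and by -0.44 and -0.60 in SKM-1. As medians over their probe sets, RPL22L1 was at 0.67 in SKM-1 and RPL35A at -0.60 in MDS-L.

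**Figure D4:**
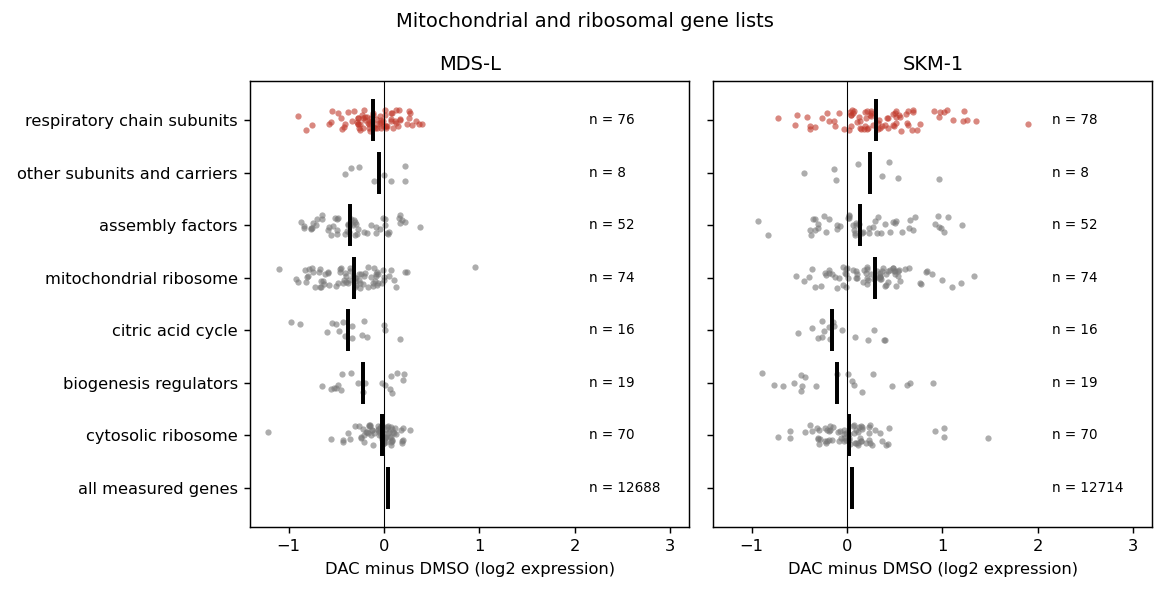
Difference of DAC minus DMSO (log2 expression, horizontal axis) of the genes of each list in MDS-L (left) and SKM-1 (right), 1 point per gene, with black bars for medians and the number of measured genes at the right. All measured genes are shown by their median only; in SKM-1 the subunits and the mitochondrial ribosome both have a median of 0.30, and the citric acid cycle lies below 0 in both lines.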

How the data were processed

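Expression was measured in MDS-L and SKM-1 cells with DAC or DMSO on 4 PrimeView arrays, 1 per condition, and samples were grouped by their titles. The authors deposited 1 log2 value per probe set and array. The study's methods name RMA in Partek Genomics Suite and RNeasy extraction, whereas the submitters' processing notes name MAS5 and the labels Trizol. Versions and scan batches are not given in the sources used here. The deposited values were used without further scaling. RMA compresses the differences of dim genes.

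Probe sets were named from the platform annotation through RefSeq (GRCh38.p14). Of 49395 probe sets, 44994 had 1 symbol, and those with several (1832) or unlisted (2569) were left out. Each gene was represented by its probe set of highest mean signal. Values under background were raised to it, so that a difference from a raised DMSO value is a lower bound. RefSeq lists 197 pseudogenes named after 47 of the members, and 38 members were represented by a probe set of a shared type (suffix s or x), whose probes may match other transcripts. Single arrays per condition allow no interval, and their number limits the precision.

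Within a line, members at least 2-fold apart were counted without a test. The common effect was tested with limma 3.58.1 in R 4.3.3 (cell line as a block, eBayes with trend, two-sided p-values, Benjamini-Hochberg over 11984 genes at 0.05). The procedures were checked on simulated data with known differences. Other steps used Python 3.11.15, numpy 2.4.6, pandas 2.3.3 and matplotlib 3.10.9. The members, lists, motifs and alternatives were chosen with earlier results of these data known, and role groups were set after the values were seen. Named are members at least 2-fold apart, the 3 largest differences per complex and line, the highest and lowest signal per complex, isoform pairs, ATP5IF1, members whose probe sets disagree by at least 0.5 on each side, of which there were none, the 2 largest differences per other list, and all subunits and carriers outside the name rule. Other genes named were chosen after their values were seen. Alternatives were other fold thresholds, background levels, no raised values, quantile normalization, centring, other choices of probe sets and other limma settings.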

Additional observations from a re-analysis of the deposited data

Results flagged for a closer look

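COA1, an assembly factor and no member of the complexes, differed by 0.32 in SKM-1 and by -0.87 in MDS-L, so that the SKM-1 difference lay 1.19 above that of MDS-L. Only genes named by the rules above were screened for this flag. COA1 was flagged because its differences had opposite signs and exceeded the pooled SD between probe sets in each line. Members outside that screen met the same criterion. NDUFA5 differed by 0.64 in SKM-1 and -0.41 in MDS-L, NDUFS3 by 0.55 and -0.31, and NDUFS8 by 0.57 and -0.38. Other genes outside it lay as far apart as COA1: MRPL1 differed by 0.89 in SKM-1 and by -0.57 in MDS-L. The COA1 difference was not tested. With the median over the probe sets of COA1, its SKM-1 difference was -0.03. Whether 1 array lay far from others of its condition could not be examined with 1 array per condition.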

How the results depend on the processing

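The median over members kept its direction under all 6 alternatives run in each line, from 0.25 to 0.33 in SKM-1 and from -0.15 to -0.03 in MDS-L. Members above 0 in SKM-1 numbered 63 of 78 after quantile normalization and 58 of 78 after centring, against 58.1% and 50% of all genes. Members below 0 in MDS-L numbered 43 and 56 of 76, against 40.8% and 50% of all genes. Members called numbered 8 in SKM-1, 21 at 1.5-fold and 1 at 3-fold, and 0 in MDS-L and 3 at 1.5-fold. Beside them, 2.71% of all genes were 2-fold higher and 1.43% lower in SKM-1, and 3.62% and 3.18% in MDS-L. At 1.5-fold these shares were 9.65% and 9.15% in SKM-1, and 9.06% and 10.7% in MDS-L. At 3-fold the share of all genes is not given here. If any probe set was allowed to count, a setting tried once the data had been seen, there were 11 in SKM-1, 2 of them lower, and 2 in MDS-L, both lower. The share of all genes in that setting is not given here either. The complex III median in MDS-L was 0.043 after quantile normalization, and that of its small subunits was -0.019 as a median over probe sets and -0.14 if shared probe sets were dropped. The complex IV median in MDS-L was 0.11 without raised values and filter, 0.033 after quantile normalization and 0.011 without shared probe sets, and the values of the last 2 settings were the same for its general isoforms. The complex II median in SKM-1 was -0.0039 after centring, -0.40 as a median over probe sets and -0.48 if shared ones were dropped, which left 1 gene. The small membrane subunits of the ATP synthase had -0.030 in MDS-L after centring, and the cytosolic ribosome in SKM-1 had -0.019 after quantile normalization and -0.029 after centring. The cause of these shifts was not tested. For single members, ATP5F1A was at -0.89 in SKM-1 and -0.85 in MDS-L with the median over probe sets, UQCR11 at 0.27 and -0.14, and SDHD at -0.40 in SKM-1, while COX4I1 was at -1.13 in SKM-1 and UQCRH at -0.21 in MDS-L without shared probe sets. COX7B2 differed by 3.80 in SKM-1 on the deposited values. In limma, 0 genes passed under any of 4 other settings. The labels give no replicate numbers, and the arrays were paired by cell line only, as in the limma fit. Signal over background limits COX7B2, COX6B2, COX6A2 and the members under background.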

Other observations

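COXFA4L3, a relative of COXFA4 that the name rule leaves out and that is on none of the lists, had 10.72 with DAC and 8.30 with DMSO in MDS-L, and 5.47 with DAC and 4.91 with DMSO in SKM-1. With DAC it was 5.37-fold higher in MDS-L, and in SKM-1 it was 1.47-fold higher, and was chosen after its values were seen. No member was 2-fold apart in MDS-L.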
